A study of Mus musculus with 8 samples.

Results

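The genes described here encode the subunits of the proteasome, the barrel-shaped protease that degrades ubiquitin-tagged proteins in every cell. Members were the genes whose single symbol on the array was Psma, Psmb, Psmc, Psmd or Psme followed by a number, and the brightest probe over 8 arrays stood for a gene with several. There were 43 members among 19937 genes with 1 symbol on the array, and the 42 at or above the brightness limit described in the methods were tested. Psma8 was the member left out of the tests.

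Whole lung RNA came from mice anaesthetised with chloral hydrate (500 mg/kg) and given mepenzolate in PBS, or vehicle, through the trachea. Mepenzolate blocks muscarinic acetylcholine receptors. Lungs were taken at 7 h or 25 h, and the 4 groups (vehicle 7 h, mepenzolate 7 h, vehicle 25 h, mepenzolate 25 h) held 2 arrays each. All groups share the anaesthetic and the instillation, the dose of mepenzolate and the strain, sex and age of the mice are not given in the sources used here, and no label tells whether a group's 2 arrays stand for different mice. The p-values therefore rest on a spread between arrays that may be technical. Markers of lung were high on all 8 arrays, with the surfactant gene Sftpc at log2 13.49 to 13.56 and the endothelial cadherin gene Cdh5 at 12.33 to 12.48. In whole tissue, fewer cells of a type and less RNA per cell cannot be told apart.

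The core particle (20S) is a stack of rings, in which alpha subunits (Psma1 to Psma7) gate the entrance and beta subunits (Psmb1 to Psmb7) form the chamber. Psmb5, Psmb6 and Psmb7 carry the cutting sites for chymotrypsin-like, caspase-like and trypsin-like activity. In immune cells and under interferon-gamma they are replaced by Psmb8, Psmb9 and Psmb10, which form the immunoproteasome and favour peptides for MHC class I. The regulatory particle (19S) has a base with the ATPases Psmc1 to Psmc6, which unfold the substrate, and a lid of Psmd subunits. The PA28 subunits Psme1 and Psme2 form another cap, also induced by interferon-gamma. When proteasome activity is short, the transcription factor NRF1, product of Nfe2l1, raises the constitutive subunit genes together through antioxidant response elements.

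Promoters of the catalytic subunits Psmb5, Psmb6, Psmb8 and Psmb9 are printed here because the results set constitutive subunits beside their immune counterparts. No match to the motifs named below was found for Psmb7 or Psmb10, and these are not printed. The motif marked differs between genes and is one that matched in the gene shown. RefSeq windows of GRCm38.p6 from 250 bases before to 50 bases after a transcription start were given for 36 of the 43 members (39 windows). They covered all 3 immunoproteasome genes and 11 of the 14 constitutive core genes, so a core gene without a match may lack a window. The stretch before the start is shown, 5′ to 3′ on the gene's strand, with the match in capitals. For Psmb5 and Psmb6 that is an antioxidant response element core (TGACNNNGC or TGAGNNNGC), for Psmb8 a gamma-activated site (TTCNNNGAA) and for Psmb9 a CCAAT box, read here on the opposite strand. The lines lie at chr14:54617996-54618145 (minus strand), chr11:70525207-70525356 (plus strand), chr17:34198045-34198194 (plus strand) and chr17:34187331-34187555 (minus strand).
Psmb5: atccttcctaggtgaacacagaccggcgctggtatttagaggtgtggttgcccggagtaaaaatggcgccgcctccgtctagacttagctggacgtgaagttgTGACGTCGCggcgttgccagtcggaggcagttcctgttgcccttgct
Psmb6: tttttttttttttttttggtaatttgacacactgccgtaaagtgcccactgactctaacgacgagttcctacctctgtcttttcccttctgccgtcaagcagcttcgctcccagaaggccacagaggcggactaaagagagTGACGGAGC
Psmb8: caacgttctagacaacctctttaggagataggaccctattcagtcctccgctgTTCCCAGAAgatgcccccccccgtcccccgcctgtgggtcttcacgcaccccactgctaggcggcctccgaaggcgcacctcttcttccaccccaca
Psmb9: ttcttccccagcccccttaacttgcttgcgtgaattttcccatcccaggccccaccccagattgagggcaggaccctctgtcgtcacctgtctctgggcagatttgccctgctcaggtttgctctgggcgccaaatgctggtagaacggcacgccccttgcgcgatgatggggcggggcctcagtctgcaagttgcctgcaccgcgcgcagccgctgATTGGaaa

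The Psmb9 line is the whole stretch of 225 bases between its start and that of Tap1, which is read the other way and encodes a chain of the peptide transporter of the MHC class I pathway. Both strands were searched, and a window with several matches counted once. An antioxidant response element core lay in 8 of 12 windows of the constitutive core (66.7%), in 5 of 15 of the 19S particle (33.3%) and in 0 of 3 of the immunoproteasome, against 27.8% of all 32851 windows. The core of the interferon-stimulated response element (GAAA, any 2 bases, GAAA) matched 4 of 39 member windows (10.3%, all windows 3.44%), those of Psmd4, Psmd9, Psmb3 and Psme1. The gamma-activated site matched those of Psmb8 and Psmd2, 2 of 39 (5.13%, all windows 8.30%). A CCAAT box lay in 14 of 39 (35.9%, all windows 37.4%). A match is a description of letters and shows no binding.

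Over the 8 arrays the subunit genes varied little. The SD of a gene's log2 level over all arrays was 0.076 at the median of the 42 members, against 0.10 over 14953 genes tested and 0.094 over the 9334 of them as bright as the members (Psmb11 set aside). The lowest SDs were those of the lid subunit gene Psmd3 (0.035), the ATPase gene Psmc2 (0.039), the catalytic Psmb7 (0.043) and Psme4, the gene of the activator PA200 (0.043). The highest were those of the beta subunit gene Psmb1 (0.14), of Psmb5 (0.14) and of the alpha subunit gene Psma6 (0.13). By class, the median SD was 0.094 in the 14 constitutive core genes, 0.066 in the 17 genes of the 19S particle, 0.074 in the immunoproteasome and 0.056 in the 4 genes of PA28 and PA200.

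**Figure D1:**
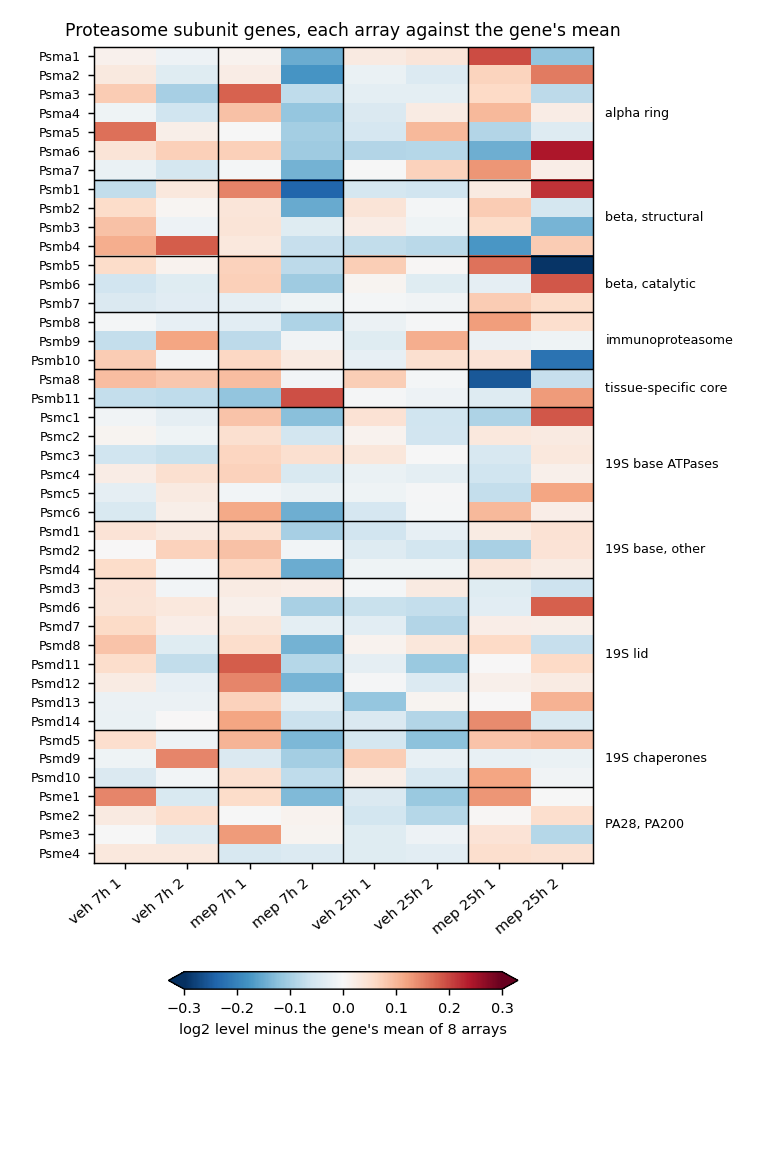
Log2 level of the 43 proteasome genes (rows, by class) on each of 8 arrays (columns; veh, vehicle; mep, mepenzolate; last digit, replicate) minus the gene's mean of 8 arrays, in colour from -0.3 (blue) to 0.3 (red). The second mepenzolate array at 7 h is blue for most constitutive genes, and Psmb5 is darkest on the second mepenzolate array at 25 h.

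Psmb5 read 10.96 and 10.92 in vehicle and 10.98 and 10.83 in mepenzolate lungs at 7 h, then 10.98 and 10.91 in vehicle and 11.07 and 10.62 in mepenzolate lungs at 25 h. Its highest and its lowest value were thus the 2 mepenzolate arrays at 25 h. The counterpart Psmb8 read 8.56 and 8.54 in vehicle and 8.53 and 8.47 in mepenzolate lungs at 7 h, and 8.55 and 8.56 in vehicle and 8.69 and 8.61 in mepenzolate lungs at 25 h. Both mepenzolate arrays of Psmb8 lay below vehicle at 7 h and above it at 25 h. The differences, mepenzolate minus vehicle with SE, were -0.046 ± 0.075 and 0.098 ± 0.075 (limma adjusted p = 1.00 and 0.979), and their difference was 0.14 ± 0.11 (adjusted p = 1.00).

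Psmb6 read 9.51 and 9.53 in vehicle and 9.64 and 9.46 in mepenzolate lungs at 7 h, and 9.58 and 9.53 in vehicle and 9.54 and 9.75 in mepenzolate lungs at 25 h. The groups overlapped at both times. Psmb9, which replaces it in the immunoproteasome, read 8.44 and 8.63 in vehicle and 8.44 and 8.50 in mepenzolate lungs at 7 h, and 8.48 and 8.62 in vehicle and 8.50 and 8.50 in mepenzolate lungs at 25 h. For Psmb9 the 2 vehicle arrays lay farther apart than the group means at each time (-0.068 ± 0.093 at 7 h, -0.051 ± 0.093 at 25 h). Psmb7 read 9.56 and 9.57 in vehicle and 9.58 and 9.59 in mepenzolate lungs at 7 h, and 9.60 and 9.59 in vehicle and 9.68 and 9.66 in mepenzolate lungs at 25 h. Its arrays did not overlap at either time, with differences of 0.019 ± 0.071 and 0.073 ± 0.071. Psmb10 read 9.11 and 9.03 in vehicle and 9.10 and 9.07 in mepenzolate lungs at 7 h, and 9.01 and 9.09 in vehicle and 9.08 and 8.82 in mepenzolate lungs at 25 h. Its low value was the second mepenzolate array at 25 h, the array that was also low in Psmb5.

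**Figure D2:**
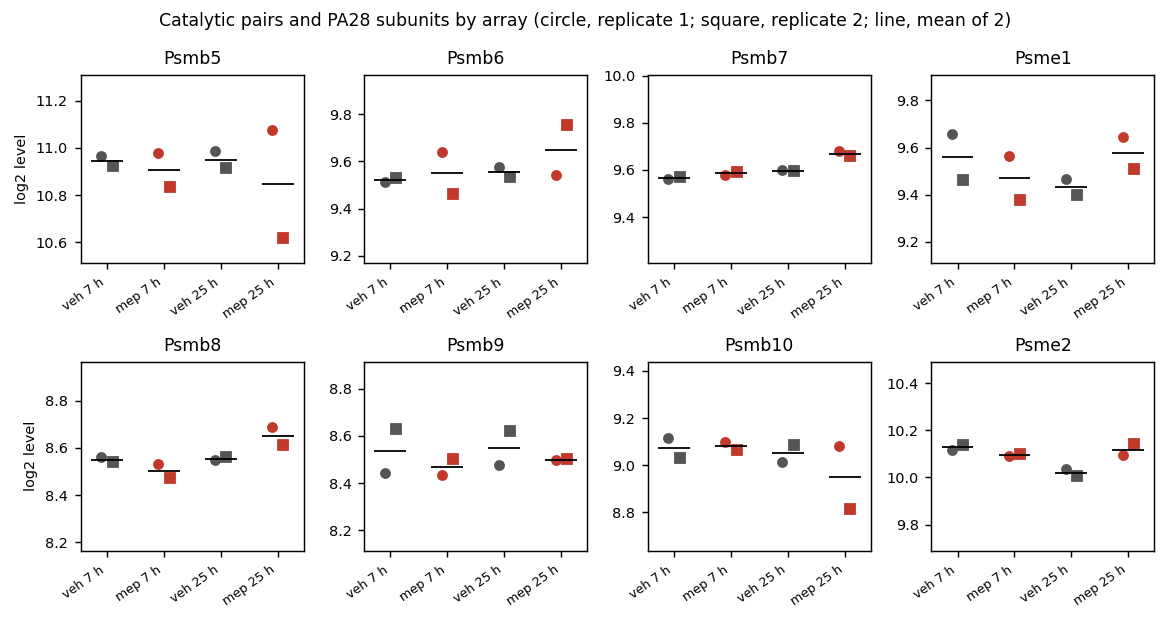
Log2 level (vertical axis, 0.8 units in every panel) of the constitutive catalytic genes Psmb5, Psmb6 and Psmb7, their immunoproteasome counterparts Psmb8, Psmb9 and Psmb10 beneath them, and the PA28 genes, in the 4 groups (grey, vehicle; red, mepenzolate; circle, replicate 1; square, replicate 2; line, mean of 2 arrays). Psmb7 spans 9.56 to 9.68, and Psmb5 in mepenzolate lungs at 25 h spreads from 10.62 to 11.07.

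The balance of each immune subunit against its constitutive counterpart, as the log2 difference on an array relative to its mean of 8 arrays, differed in direction between the catalytic sites. At 25 h the mepenzolate mean lay above the vehicle mean by 0.20 for Psmb8 over Psmb5, below it by -0.14 for Psmb9 over Psmb6 and by -0.18 for Psmb10 over Psmb7. The second mepenzolate array held the extreme of each, at 0.34, -0.20 and -0.28. The first lay at -0.037, 0.0097 and -0.035. The first and second of these values were within the range of the vehicle arrays at 25 h, and the last was below it. At 7 h the 3 balances differed between treatments by -0.0097, -0.097 and -0.0080. Over the 8 arrays the levels of Psmb8 and Psmb9 had a Pearson r of -0.053 (Spearman rho 0.024), Psmb8 and Psmb10 -0.24 (-0.095) and Psmb9 and Psmb10 -0.069 (-0.43), given as a description of arrays that share groups and normalization.

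Psme1 read 9.66 and 9.46 in vehicle and 9.56 and 9.38 in mepenzolate lungs at 7 h, and 9.47 and 9.40 in vehicle and 9.64 and 9.51 in mepenzolate lungs at 25 h. Psme2 read 10.12 and 10.14 in vehicle and 10.09 and 10.10 in mepenzolate lungs at 7 h, and 10.03 and 10.01 in vehicle and 10.09 and 10.14 in mepenzolate lungs at 25 h. Both genes were higher without overlap in mepenzolate lungs at 25 h, by 0.14 ± 0.10 and 0.098 ± 0.072, and Psme2 was lower without overlap at 7 h (-0.033 ± 0.072). A further probe is shared by Psme2 and its near copy Psme2b and was not used. That probe read 9.67 and 9.52 in vehicle and 9.69 and 9.56 in mepenzolate lungs at 7 h. At 25 h it read 9.48 and 9.70 against 9.66 and 9.61, so its arrays overlapped at both times. The nuclear homologue Psme3 stood at 0.0032 ± 0.083 at 25 h and 0.088 ± 0.083 at 7 h. Psme4 read 9.55 and 9.55 in vehicle against 9.63 and 9.63 in mepenzolate lungs at 25 h, and 9.62 and 9.61 against 9.53 and 9.54 at 7 h. It lay higher without overlap at 25 h (0.082 ± 0.070) and lower at 7 h (-0.076 ± 0.070).

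At 25 h, the time at which the study looked for gene sets that differ with mepenzolate, 32 of 42 members stood higher in mepenzolate lungs (76.2%, against 41.3% of all genes tested), and the median difference was 0.053, against -0.023 over all genes. None passed limma. It called 0 of 42 members and 0 of 14953 genes (0%) at an adjusted p under 0.05, and at an unadjusted p under 0.05 again 0 of 42 members, against 4.01% of all genes. Without the first mepenzolate array 4 members had such a p. With median centring of the arrays 35 members stood higher, against 51.6% of all genes, and with quantile normalization 28, against 42.5%. The arrays did not overlap for 16 members that stood higher (38.1%, against 14.2% of all genes) and for 1 that stood lower, Psmd3 (2.38%, against 22.4%). The 95% intervals of single members ran from -0.43 (Psmb5) at the lowest to 0.48 (Psmb1) at the highest.

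The largest differences at 25 h were shared among classes. Psmb1 read 8.88 and 8.87 in vehicle and 8.95 and 9.14 in mepenzolate lungs (0.18 ± 0.13). Psmd5, an assembly chaperone of the 19S base, read 8.77 and 8.69 against 8.90 and 8.91 (0.18 ± 0.095), the smallest p among members (0.0987 unadjusted, limma adjusted p = 0.979). The lid subunit gene Psmd6 read 8.66 and 8.65 against 8.69 and 8.90 (0.14 ± 0.092), and the alpha subunit gene Psma2 8.88 and 8.86 against 8.97 and 9.06 (0.14 ± 0.090). In each the mepenzolate arrays lay above both vehicle arrays, and in Psmb1 and Psmd6 the second mepenzolate array made most of the difference. The lowest were Psmb5 (-0.10 ± 0.14), Psmb10 (-0.10 ± 0.10) and Psma5 (-0.087 ± 0.092), all with overlapping arrays.

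By class, 10 of 14 constitutive core genes stood higher at 25 h (median 0.037, from -0.10 to 0.18), 3 of them without overlap: Psma2, Psmb1 and Psmb7. Of the 17 genes of the 19S particle 14 stood higher (median 0.052), 8 without overlap. Those were the ATPase genes Psmc2 (0.052) and Psmc6 (0.087), the scaffold gene Psmd1 (0.075), the ubiquitin receptor gene Psmd4 (0.044), and Psmd6, Psmd7 (0.078), Psmd11 (0.10) and Psmd12 (0.041) of the lid. Psmd14, the deubiquitinase of the lid, stood at 0.11 ± 0.096 with overlap. All 4 genes of PA28 and PA200 stood higher (median 0.090), and 1 of 3 immunoproteasome genes did (median -0.051, and 0.029 without the second mepenzolate array). The core median was 0.0088 without the first mepenzolate array and 0.084 without the second. Among the chaperones Psmd10, or gankyrin, stood at 0.069 ± 0.085 and Psmd9 at -0.046 ± 0.085.

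**Figure D3:**
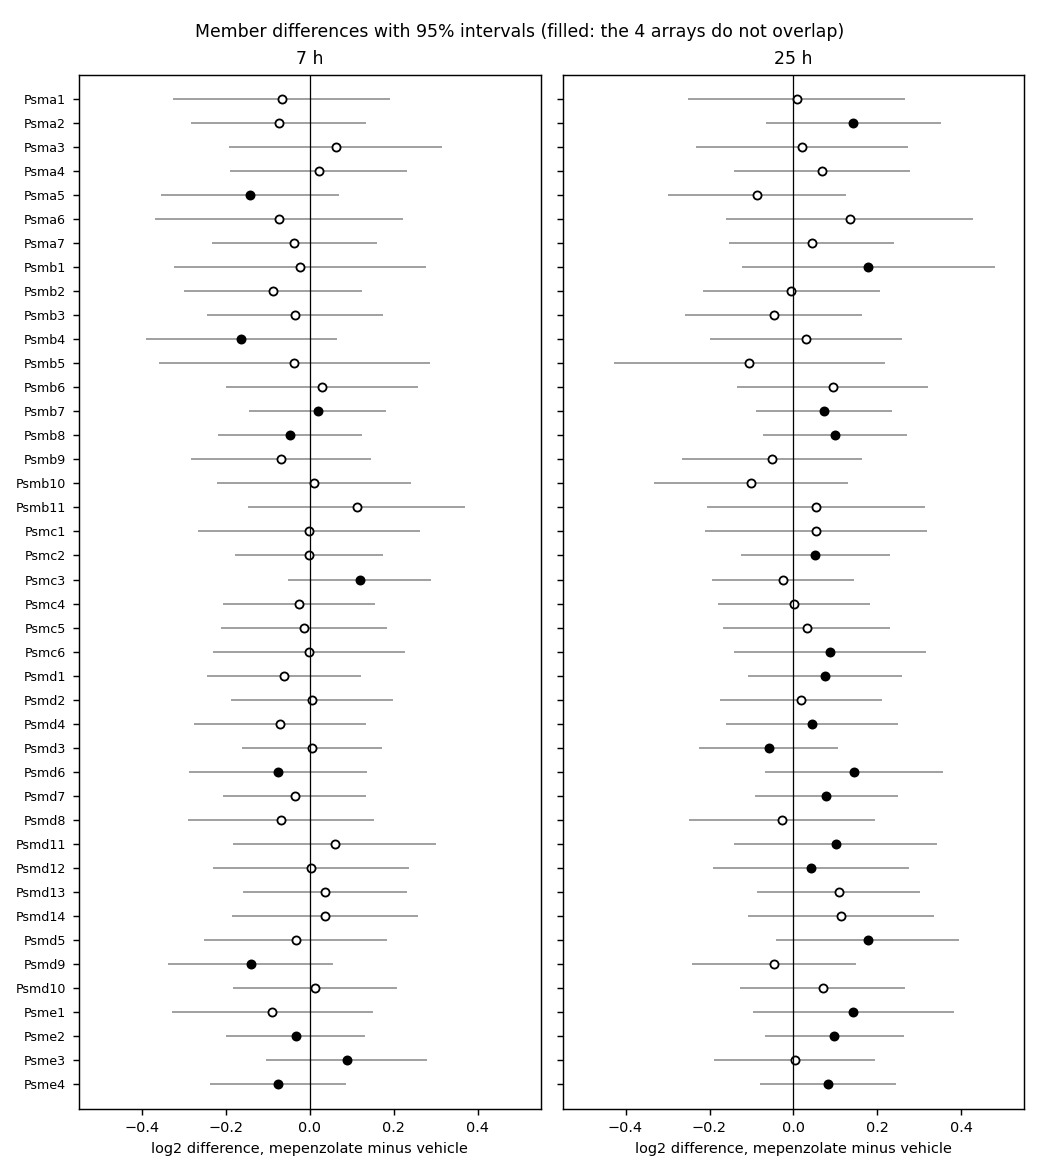
Log2 difference, mepenzolate minus vehicle (horizontal axis), of the 42 tested members at 7 h and at 25 h, with 95% moderated intervals from 2 arrays a group; filled points mark members whose 4 arrays do not overlap. All intervals include 0, and more points lie right of 0 at 25 h (32) than at 7 h (15).

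At 7 h, 15 of 42 members stood higher in mepenzolate lungs (35.7%, against 43.6% of all genes), with a median of -0.029 against -0.013 over all genes. The core median was -0.037 (4 of 14 higher), that of the immunoproteasome -0.046 (1 of 3) and that of PA28 and PA200 -0.055 (1 of 4), while the 19S median of -0.0019 (7 of 17) became 0.012 with quantile normalization. Limma called 0 members and 0 genes (0%), and 0 of 42 members had an unadjusted p under 0.05, against 2.39% of all genes. Without overlap 3 members stood higher (7.14%, against 8.26%), namely Psmc3, Psme3 and Psmb7, and 7 stood lower (16.7%, against 15.5%), shares near those of all genes. Psmb4, a beta subunit gene, read 10.41 and 10.48 in vehicle and 10.33 and 10.23 in mepenzolate lungs (-0.16 ± 0.099). Psmd9 read 7.36 and 7.52 against 7.33 and 7.27 (-0.14 ± 0.085), Psma5 8.57 and 8.42 against 8.40 and 8.30 (-0.14 ± 0.092), and the ATPase gene Psmc3 8.54 and 8.53 against 8.67 and 8.65 (0.12 ± 0.074). The 95% intervals ran from -0.39 (Psmb4) to 0.37 (Psmb11).

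The counts at 7 h depended on which mepenzolate array was kept. On the second mepenzolate array at 7 h, 20 of 42 members had their lowest value of the 8 arrays (47.6%, against 21.0% of all genes), and 37 of 42 lay below the first mepenzolate array. The median member stood at -0.082 there and 0.052 on the first, relative to its mean of 8 arrays, and all genes tested at -0.024 and 0.019. The constitutive core (-0.11) and the 19S particle (-0.064) were low on it, while the immunoproteasome stood at -0.011. Without the second array 31 of 42 members stood higher at 7 h (median 0.028), against 51.5% of all genes, and without the first 5 did (median -0.079), against 38.7%. The second array also had a mean level of 7.95 over the 8 of 8 ciliated cell markers tested, against 8.28 to 8.65 on the other 7 arrays, and of 7.58 over the 4 of 6 liver markers bright enough to test, against 6.28 to 6.44. Over the 7 club cell markers its mean level was 11.276, against 11.591 to 11.935 on the other 7 arrays. Its 20 tested interferon response genes had a median of 0.17 above their mean of 8 arrays. The part of these shifts in the proteasome values was not tested.

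**Figure D4:**
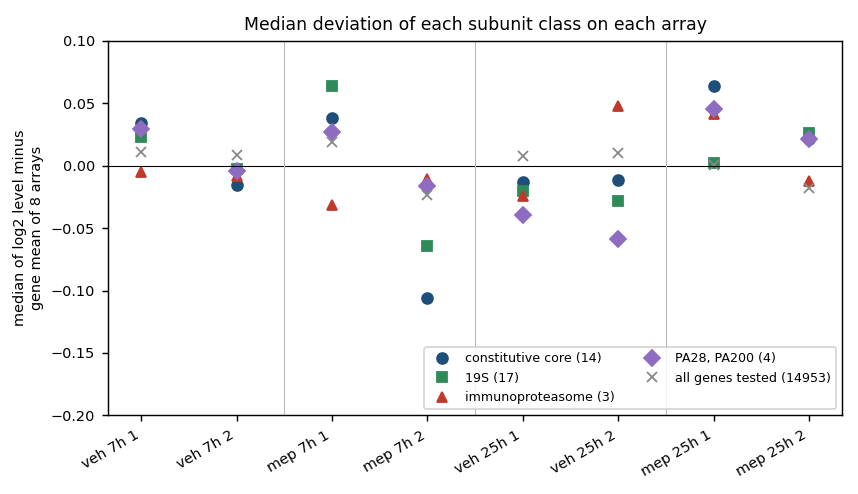
Median, over the genes of a class (number in brackets), of the log2 level minus the gene's mean of 8 arrays (vertical axis) on each array (veh, vehicle; mep, mepenzolate; last digit, replicate). The core lies at -0.11 on the second mepenzolate array at 7 h, and the 19S particle at -0.064 there and 0.064 on the first.

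Replicates of vehicle lungs lay closer than those of mepenzolate lungs. The median absolute gap between the 2 arrays of a group over the 42 members was 0.045 (vehicle) and 0.13 (mepenzolate) at 7 h, and 0.034 and 0.11 at 25 h. Over all genes tested the gaps were 0.088 and 0.14 at 7 h and 0.071 and 0.12 at 25 h. The largest were 0.46 in Psmb5 (mepenzolate, 25 h) and 0.39 in Psmb1 (mepenzolate, 7 h). The difference of spread between treatments was not tested.

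The comparisons at 7 h and 25 h share no arrays. Of the 42 members 20 stood higher at 25 h and lower at 7 h (47.6%, against 22.6% of all genes). At both times 12 stood higher (28.6%, against 18.7% of all genes) and 7 lower (against 5059 of 14953 genes). The other 3 stood lower at 25 h and higher at 7 h (against 3724 of 14953 genes). The test of the difference between the times called 0 of 42 members and 0 of 14953 genes (0%) by limma, with 0 members at an unadjusted p under 0.05, against 2.68% of all genes. Its median was 0.060, and 34 of 42 members stood higher (81.0%, against 48.3% of all genes). With the second mepenzolate array at 7 h left out the median was 0.0033, and with the first left out it was 0.15. The largest were Psme1 (0.23 ± 0.15), Psmd6 (0.22 ± 0.13) and Psma2 (0.22 ± 0.13). Averaged over both times, 29 of 42 members stood higher with mepenzolate (69.0%, against 40% of all genes; median 0.026), and limma called 0 members and 0 genes (0%). No member had an unadjusted p under 0.05 (0 of 42, against 3.77%), and none was without overlap, against 0.602% of all genes higher and 1.81% lower. With 4 arrays against 4 the averaged intervals ran from -0.30 (Psmb5) to 0.29 (Psmb1). Without the first mepenzolate array at 7 h the median of this average was -0.017.

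The comparison of 25 h with 7 h in vehicle lungs gives the time course without drug. Here 12 of 42 members stood higher at 25 h (28.6%, against 49.9% of all genes), with a median of -0.022. That split moved with the scaling, to 20 of 42 with quantile normalization (47.6%) and 3 of 42 with median centring (7.14%). Limma called 0 members, against 13 genes in all (0.0869%), and 0 members had an unadjusted p under 0.05, against 5.74% of all genes. Without overlap 6 members stood higher (14.3%, against 20.9% of all genes) and 12 lower (28.6%, against 22.2%). Psmb4 had the smallest p (-0.22 ± 0.099, unadjusted p = 0.0543, limma adjusted p = 0.874), with 10.41 and 10.48 at 7 h and 10.22 and 10.22 at 25 h. With median centring the median over all genes went to -0.038.

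Averaged over both treatments, 22 of 42 members stood higher at 25 h than at 7 h (52.4%, against 50.7% of all genes; 27 with quantile normalization and 14 with median centring). Limma called 0 members, against 33 genes (0.221%), and again 0 of 42 had an unadjusted p under 0.05, against 8.97% of all genes. The 4 arrays at 25 h lay above the 4 at 7 h for 2 members (all genes 2.55%), Psma7 (0.11 ± 0.060, limma adjusted p = 0.677) and Psmb7 (0.057 ± 0.050). Psma7 read 8.52, 8.49, 8.53 and 8.40 at 7 h and 8.54, 8.61, 8.67 and 8.56 at 25 h. No member was lower without overlap, against 4.15% of all genes.

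A pair of core genes are known for single tissues. Psmb11, the catalytic subunit of the thymoproteasome of thymic cortical epithelium, lay just above the brightness limit of 5.93, at 6.14 to 6.45. Its highest value was the second mepenzolate array at 7 h. Of 6 markers of thymic epithelium, Foxn1 and Prss16 were below the limit by mean level. The 4 bright enough to test (Aire, Ccl25, Ctsl and Ly75) stood at a median of -0.072 at 25 h and 0.063 at 7 h. Psma8, the alpha subunit of male germ cells, read 4.77 to 5.12, below the limit on every array, and 2 of 7 germ cell markers were above it. Whether these levels exceed the background of a probe was not tested.

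For 5 members several probes carried the symbol, and copies of the gene elsewhere could share their signal. At 25 h the 3 Psma3 probes read differences of 0.019 (brightest, used here), -0.054 and 0.064, and the 2 Psmd2 probes 0.018 and -0.027. The probes of Psma5 (-0.087 and -0.029), Psmb3 (-0.047 and -0.12) and Psmc1 (0.054 and 0.12) had like signs. At 7 h the Psma3 probes read 0.062 (brightest), -0.14 and -0.036. Signs also differed at 7 h for Psmc1 (-0.0025 and 0.053) and Psmd2 (0.0052 and -0.0043). Those of Psma5 (-0.14 and -0.076) and Psmb3 (-0.035 and -0.099) were alike.

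Other genes of the pathway were taken from lists. Of 22 measured partners of the proteasome (assembly factors, shuttles, deubiquitinases and NRF1), 11 stood higher and 11 lower at 25 h (median 0.0037), and 9 higher and 13 lower at 7 h. Limma called 0 of them in any of the 6 comparisons. Nfe2l1 stood at -0.064 ± 0.086 at 25 h and -0.012 ± 0.086 at 7 h. Pomp, the maturation factor of the core, read 8.57 and 8.55 in vehicle and 8.46 and 8.31 in mepenzolate lungs at 7 h (-0.17 ± 0.086), and stood at 0.066 ± 0.086 at 25 h. Psmg4, an assembly chaperone of the alpha ring, was the partner with an unadjusted p under 0.05, over both times (-0.13 ± 0.054, limma adjusted p = 0.999). Of 14 genes of ubiquitin supply and ligases 12 stood higher at 25 h (85.7%, against 41.3% of all genes, median 0.069). At 7 h 11 did (78.6%, against 43.6% of all genes, median 0.031). Skp1, the adaptor of the SCF ligases, stood at 0.34 ± 0.12 at 25 h (limma adjusted p = 0.979).

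Of 11 measured genes of MHC class I presentation, 6 stood higher at each time (medians 0.0033 at 25 h and 0.0022 at 7 h). Tap1, the divergent neighbour of Psmb9, read 8.12 and 7.98 in vehicle and 8.14 and 8.28 in mepenzolate lungs at 7 h (0.16 ± 0.087), and stood at -0.0062 ± 0.087 at 25 h. Tap2 stood at 0.042 ± 0.090 and 0.098 ± 0.090 at 7 h and 25 h, and Nlrc5, the activator of MHC class I genes, at 0.016 ± 0.13 and -0.080 ± 0.13. Pdia3, a chaperone of peptide loading, read 11.20 and 11.19 in vehicle and 11.41 and 11.36 in mepenzolate lungs at 25 h (0.19 ± 0.074, unadjusted p = 0.0304, limma adjusted p = 0.979). The calnexin gene Canx stood lower at 25 h than at 7 h over both treatments (-0.12 ± 0.053, limma adjusted p = 0.555).

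Single genes of the interferon response list (20 tested) differed more than the 3 immune subunits, also without passing limma. With more genes, larger extremes can arise from the length of the list. The GTPase gene Gbp4 read 9.52 and 9.38 in vehicle and 8.65 and 8.33 in mepenzolate lungs at 25 h (-0.96 ± 0.16, limma adjusted p = 0.979). The chemokine gene Cxcl10 read 5.78 and 5.91 in vehicle and 6.06 and 6.55 in mepenzolate lungs at 7 h (0.46 ± 0.15), and the GTPase gene Iigp1 7.89 and 7.90 against 8.23 and 8.84 (0.64 ± 0.22). In both the second mepenzolate array was the higher. The vehicle values of Cxcl10 at 7 h lay below the brightness limit of 5.93. Irf1, a transcription factor of immunoproteasome induction, stood at -0.083 ± 0.081 at 25 h and -0.0016 ± 0.081 at 7 h. Of 20 tested genes 12 stood higher at 25 h and 15 at 7 h, against 41.3% and 43.6% of all genes. The list medians were 0.020 and 0.084.

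Markers of several cell types also differed at 25 h, when 41.3% of all genes tested stood higher with mepenzolate. Of 10 T cell markers 8 stood higher with mepenzolate, and their mean level was 7.60 to 7.67 against 7.42 to 7.49 in vehicle lungs. All 5 NK cell markers bright enough to test stood lower, at 6.79 to 7.02 against 7.26 to 7.35, and 3 of the 8 measured were below the limit. Of 8 dendritic cell and monocyte markers 7 stood lower (7.77 to 7.83 against 7.93 to 7.95). So did 7 of 8 neutrophil markers (7.62 to 7.82 against 7.81 to 8.06) and 7 of 8 endothelial markers (11.101 to 11.222 against 11.216 to 11.296). For neutrophils and endothelium the mean levels of the treatments overlapped. Those of the 7 B cell markers overlapped too, at 8.36 to 8.59 against 8.03 to 8.75. Limma called 0 markers of these lists at an adjusted p under 0.05. Their part in the proteasome values was not tested.

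Outside the rule, the 5 genes whose levels over the 8 arrays most resembled the mean of the constitutive core were Prepl (r = 0.990, rho 0.976), Bag5 (0.986, 0.905), Dpy30 (0.985, 0.976), Zbtb25 (0.983, 0.952) and Dis3l2 (0.981, 0.976), the highest of 14911 compared. Each was lowest on the second mepenzolate array at 7 h, as the core was, and r was 0.848 to 0.969 without the 2 mepenzolate arrays at 7 h, which lay farthest from the median. For the mean of the 3 immunoproteasome genes they were Emc2 (r = 0.953), Sdr39u1 (0.952), Git1 (0.943), Lamb1 (0.935) and Rabepk (0.930). Pairs of these 3 genes had an r of -0.24 to -0.053, so their mean is not a shared pattern. None of the 5 is among the 11 tested genes of MHC class I presentation or the 20 of interferon response. Those lists are few among the 14911 compared, so no conclusion is drawn from that.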

How the data were processed

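The deposited values are log2 expression of 34760 probes on 8 Affymetrix arrays, made with RMA per the submitters' processing notes. Its version is not stated there. The method removes background, scales arrays toward one intensity distribution and compresses the differences of dim probes. In the deposited values the array medians still ran from log2 6.7 to 6.77. Groups and replicate numbers follow the sample titles. A probe was named where the platform annotation gave it 1 symbol (21640 probes, of which 21553 matched RefSeq's gene table by Entrez identifier), and the brightest probe stood for a gene. The dimmest genes by mean level (limit log2 5.93, the 25th percentile) were set aside, which left 14953 genes to test. Limma 3.58.1 in R 4.3.3 fitted 1 mean per group, with 1 spread shared by 8 arrays (4 residual and 4.09 prior degrees of freedom), and p-values were adjusted by Benjamini-Hochberg over all genes tested. Errors are moderated SEs, and the number of arrays limits their precision. The fit was tested on simulated data with differences planted at 25 h, all larger than that of any member. Whether it would find differences as small as those of the members was not tested.

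The members and lists were chosen with earlier results of these data known. The rule named all members, a few fixed pathway genes (of which 1 is not reported here), up to 4 genes per list and comparison with an unadjusted p under 0.05, and the 5 most alike. Members given array by array beyond the catalytic and PA28 genes were chosen after their values were seen. Filters, normalization, the probe rule, the variance model, the samples fitted, the replicate block and single arrays left out were varied.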

Additional observations from a re-analysis of the deposited data

How the results depend on the processing

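No member passed the adjusted threshold by limma under any setting tried, and of 17 members followed at 7 h and 25 h, 12 changed direction at least once. Deviations of arrays with the same replicate number correlated at 0.19 to 0.40 in 3 of 6 pairs of groups. In the 3 pairs with vehicle lungs at 25 h they correlated at -0.021 to 0.027. The labels state no pairing, and none was used in the main fit. Whether the other groups share a replicate factor was not tested. With the replicate number as a block limma called 1 gene at 25 h and 73 genes in the comparison 25 h minus 7 h over both treatments. That time comparison called 72 genes with the stricter filter and 123 with the intensity trend, and with quantile normalization 1 member had an unadjusted p under 0.05. In vehicle lungs the genes called between the times were 7 with quantile normalization, 33 with the intensity trend and 55 with array weights. There 1 member had an unadjusted p under 0.05 with the stricter filter, median centring, the trend, array weights, or only the groups compared. Members lower without overlap at 25 h were 2 without the filter or with quantile normalization and 0 with median centring, which also left 1 member higher without overlap at 7 h and took Psmc3 at 25 h to 0.0025. The cause was not tested.

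Leaving out 1 array at a time, genes called ranged from 0 to 1 (25 h), 0 to 2 (7 h), 0 to 2 (both times), 0 to 2 (difference between the times), 11 to 34 (time over both treatments) and 0 to 1 (time in vehicle lungs). Members with an unadjusted p under 0.05 ranged, in the same order, from 0 to 4, 0 to 1, 0 to 1, 0 to 3, 0 to 1 and 0 to 0, and the median member from 0.041 to 0.058, -0.079 to 0.028, -0.017 to 0.042, 0.0033 to 0.15, -0.032 to 0.029 and -0.043 to -0.002. At 25 h the members higher ranged from 29 to 33, those higher without overlap from 20 to 27 (24.0% to 36.8% of all genes) and those lower without overlap from 3 to 10 (35.5% to 46.3% of all genes). With 1 array in an arm, overlap is rarer by construction, so these counts exceed those from all arrays. Class medians at 25 h ranged from 0.0088 to 0.084 (core), 0.036 to 0.059 (19S), -0.12 to 0.029 (immunoproteasome), 0.077 to 0.096 (PA28 and PA200), 0.0054 to 0.13 (chaperones). Members that changed sign at 25 h ranged from -0.33 to 0.12 (Psmb5), -0.014 to 0.20 (Psmb6), -0.12 to 0.021 (Psmb9), -0.23 to 0.029 (Psmb10), -0.096 to 0.16 (Psmb4), -0.094 to 0.0015 (Psmd9), -0.064 to 0.015 (Psmc3), -0.013 to 0.10 (Psma7). At 7 h the members higher ranged from 5 to 31, those higher without overlap from 4 to 22 (21.3% to 36.2% of all genes) and those lower without overlap from 9 to 33 (29.6% to 47.5% of all genes). Class medians at 7 h ranged from -0.13 to 0.021 (core), -0.074 to 0.05 (19S), -0.037 to -0.016 (immunoproteasome), -0.05 to -0.017 (PA28 and PA200), -0.15 to 0.075 (chaperones). Members that changed sign at 7 h ranged from -0.11 to 0.037 (Psmb5), -0.060 to 0.12 (Psmb6), -0.16 to 0.026 (Psmb9), -0.032 to 0.053 (Psmb10), -0.19 to 0.0063 (Psme1), -0.15 to 0.084 (Psmd5), -0.17 to 0.026 (Psma2), -0.22 to 0.17 (Psmb1), -0.10 to 0.032 (Psma7).

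The limits are the number of arrays, 2 a group, and an unknown relation between arrays and animals. Differences of dim probes such as Psmb11 are compressed by RMA.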
